A study of Mus musculus with 28 samples.

Results

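Sperm small RNA from male mice was compared between alcohol and control, once in wild-type (WT) males and once in males lacking the transcription factor Nrf2 (gene Nfe2l2, labelled Nrf2 -/-). The comparison used 20 of the 28 libraries of the series. The WT set held 12 libraries: 4 controls without alcohol and 8 from alcohol-exposed males, of which 4 were labelled low, 2 medium and 2 high exposure. In the Nrf2 -/- set there were 8 libraries, 4 controls and 4 labelled ethanol, all from males with the same genotype. The libraries came from total sperm RNA (Trizol, then a Qiaseq small RNA kit). Within each set the response was the log2 ratio of alcohol over control, with all WT doses pooled, and the measure of interest was the WT response minus the Nrf2 -/- response. A positive difference means a higher response in WT. The dose behind the ethanol label is not given, the exposures may therefore differ between the sets, and the set and the genotype cannot be told apart in the levels. The labels do not say that the libraries of a group came from separate animals, so p-values measure the spread between these libraries. They also do not say where the Nrf2 deletion lies, or on which strain it was made.

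Nrf2 is held in the cytoplasm by Keap1 and degraded; oxidants and electrophiles release it, and it then switches on genes for glutathione synthesis, detoxification and redox repair. Alcohol metabolism, by alcohol dehydrogenases, Cyp2e1 and catalase, yields acetaldehyde and reactive oxygen. Mature sperm make almost no new RNA, and carry fragments of ribosomal and transfer RNA, miRNAs, piRNAs, remnants of spermatid transcripts and small RNAs received from the epididymis.

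Nfe2l2 itself had few reads and could not check the genotype labels. Its exons held 15, 19, 15 and 29 counts in the WT controls, 14, 11, 25 and 14 in the low-dose libraries, 12 and 8 in the medium, and 47 and 4 in the high. Nrf2 -/- controls held 20, 17, 0 and 5 counts and the ethanol libraries 4, 1, 9 and 10. The exon row with the most reads held 46 counts summed over the WT controls, 75 over WT alcohol, 16 over the Nrf2 -/- controls and 5 over ethanol, and the row of the exon shared by both annotated transcripts 6, 16, 8 and 11. Transcripts were therefore counted in both genotypes, and without the position of the deletion no row tests it.

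Total counts were 1993933 to 11119711 per WT library and 3922109 to 6448390 per Nrf2 -/- library. Sperm and spermatid transcripts, among them the protamines Prm1 and Prm2, which pack sperm DNA, were counted in every library (summed 243 to 1249 CPM, counts per 1000000 of all counts). The 4 Nrf2 -/- controls fell into 2 unlike pairs. Summed markers of epididymis epithelium reached 2028 and 1751 CPM in controls 1 and 2, against 61.2 and 45.9 CPM in controls 3 and 4, with the ethanol libraries between them at 422, 329, 223 and 540. Sperm and spermatid transcripts ran the other way, 243 and 288 CPM in controls 1 and 2, 989 and 1249 in controls 3 and 4, and 298 to 402 in the ethanol libraries. Over features other than miRNAs, log2 values correlated at 0.955 within the first pair, 0.929 within the second and 0.612 to 0.686 across the pairs (Pearson, across 17266 features of 2 libraries at a time, a description). Several Nrf2 -/- results are therefore also given against either pair alone; these subsets were chosen after the data had been seen. In the WT set, control 1 had 75.8% of its counts in structural RNA (Wilson 95% interval 75.75 to 75.8), and the high-dose library 1 had 2089 CPM of epididymis markers, against 598 CPM in the next alcohol library. In bulk samples, fewer cells of a type and less RNA per cell cannot be told apart.

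The miRNAs below are some of those with low p-values of the difference or of the WT response, with let-7 family members beside them so that they can be compared by seed. Sequences are RefSeq's (GRCm38.p6), written 5′ to 3′ with bases 2 to 8, the seed that pairs with targets, in capitals. Of the 32 named miRNAs 21 had a mature sequence there, and miR-486a-5p and miR-669o-3p are only named.
miR-22-5p: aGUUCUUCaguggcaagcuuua
miR-296-5p: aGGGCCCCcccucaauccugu
miR-425-5p: aAUGACACgaucacucccguuga
miR-878-3p: gCAUGACAccacacuggguaga
miR-743a-3p: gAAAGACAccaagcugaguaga
miR-101a-3p: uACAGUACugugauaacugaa
miR-451a: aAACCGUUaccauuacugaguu
let-7b-5p: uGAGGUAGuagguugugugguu
let-7c-5p: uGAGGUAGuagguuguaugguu
let-7i-5p: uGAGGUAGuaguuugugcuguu
miR-98-5p: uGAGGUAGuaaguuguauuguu
The 3 let-7 miRNAs and miR-98-5p share 1 seed, as do all 10 let-7 members with a sequence, whereas the 7 listed above them have a different seed each. On GRCm38.p6, miR-22-5p lies at chr11:75463734-75463755 (plus strand), miR-296-5p at chr2:174267093-174267113 (minus) and miR-425-5p at chr9:108568789-108568811 (plus). The testis miRNAs miR-743a-3p (chrX:66776760-66776781, minus) and miR-878-3p (chrX:66801518-66801539, minus) are neighbours on the X chromosome. let-7b-5p lies at chr15:85707325-85707346 (plus) and miR-101a-3p at chr4:101346957-101346977 (minus).

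No feature passed an adjusted p of 0.05 in either response or in their difference (edgeR's quasi-likelihood test, Benjamini-Hochberg over 317 miRNAs and, separately, 17266 other features). At an unadjusted p under 0.05, edgeR gave 43 miRNAs in WT (13.6% of those tested), 5 in Nrf2 -/- (1.58%) and 17 for the difference (5.36%). Among other features the counts were 873 (5.06%), 578 (3.35%) and 805 (4.66%). DESeq2 called 21 miRNAs in WT, 0 in Nrf2 -/- and 2 for the difference, and 8, 0 and 2 other features. Against controls 3 and 4 alone, edgeR called 42 miRNAs for the difference, 31 of them lower and 11 higher, and against controls 1 and 2 alone it called 1. For other features the Nrf2 -/- response gave 2631 calls against controls 1 and 2 (936 higher, 1695 lower) and 545 against controls 3 and 4 (469 higher, 76 lower), counted over the same 17266 features. Only 11 were called in 1 direction against both pairs and 227 were called in opposite directions, 219 of them exons. The filter asks only for enough counts in as many libraries as the smallest group holds, whichever set they belong to. As a result, 284 of the 317 miRNAs and 12764 of the other features had at least 10 counts in 4 WT libraries, against 230 and 6970 in Nrf2 -/- libraries.

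The 2 responses ranked features little alike in any class. Across features, Spearman's rho between the WT and the Nrf2 -/- response was 0.23 for 5200 introns, 0.16 for 8549 exons, 0.13 for 861 structural RNAs, which include transfer, ribosomal and small nuclear RNA, and 0.12 for 91 miRNA hairpins. It was 0.05 for 1200 sense and 0.02 for 1155 antisense transposon features, -0.01 for 210 piRNA clusters and -0.09 for 317 miRNAs. The jackknife standard error over libraries was 0.29 for introns and 0.21 for exons, larger than either rho. These correlations describe features that share libraries and scaling, and the 2 responses share no library. Introns had the same sign in both sets in 62.1%, where their shares of positive responses in each set alone would give 56.2%. For miRNAs the same figures were 45.1% and 49.9%. Leaving out 1 library at a time moved rho between 0.04 and 0.29 for introns, between 0.08 and 0.27 for exons and between -0.21 and 0.12 for miRNAs. Against Nrf2 -/- controls 1 and 2 alone, rho was 0.47 for structural RNAs, 0.30 for miRNAs and -0.10 for introns. Against controls 3 and 4 alone it was -0.06 for exons. The median difference was 0.54 for exons (0.24 without Nrf2 -/- control 2), -0.44 for structural RNAs (-0.048 without WT control 1) and -0.34 for hairpins (-0.13 without WT control 2), on the log2 scale. With total counts as the scale the median difference of all other-class features was 0.73 in place of 0.23.

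**Figure D1:**
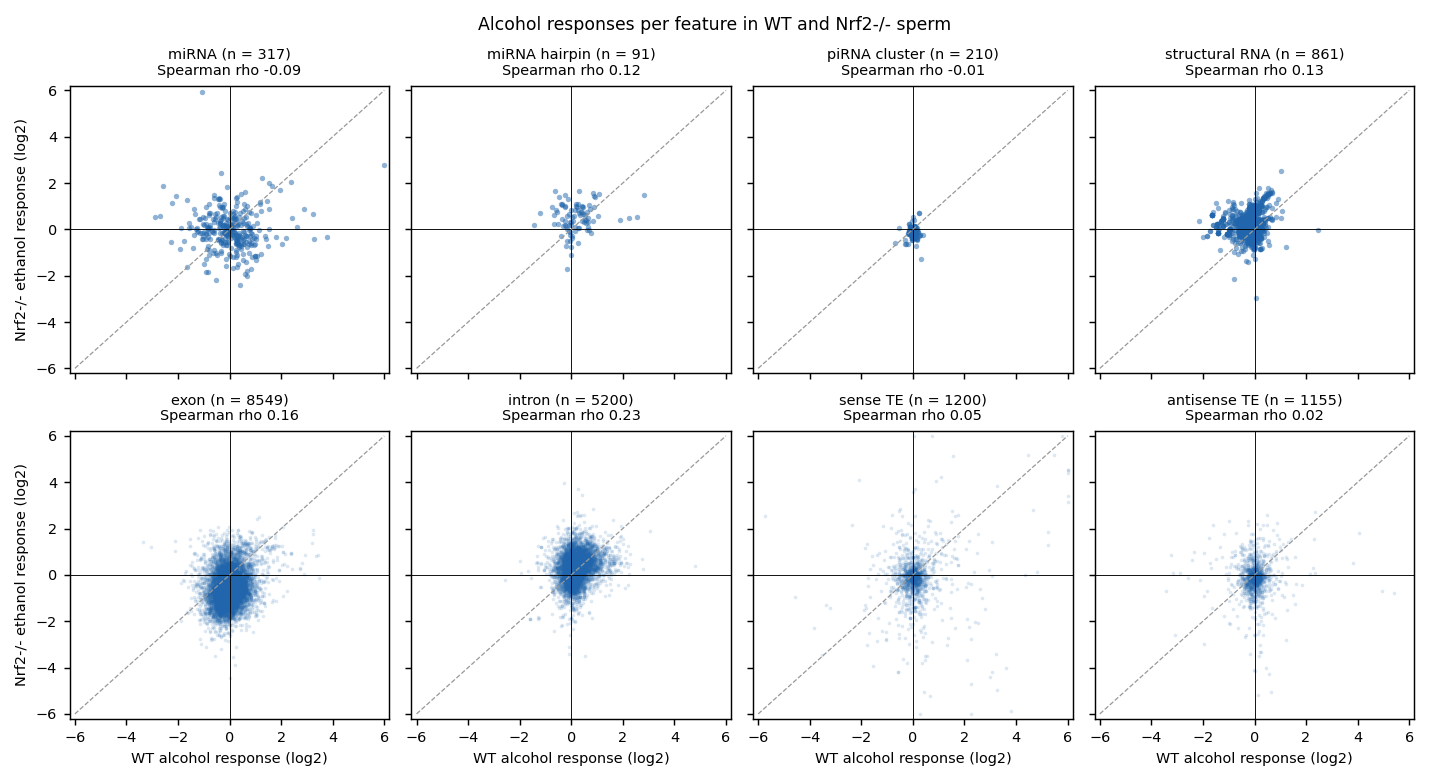
Log2 response to alcohol in WT sperm (x axis) against the log2 response to ethanol in Nrf2 -/- sperm (y axis), 1 point per feature and 1 panel per RNA class; values beyond 6 are drawn at the edge and the dashed line marks equal responses. Introns and exons had a rho of 0.23 and 0.16, and the miRNA panel one of -0.09.

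Most small nucleolar RNAs (snoRNAs) had a positive response to ethanol in Nrf2 -/- sperm and a lower response to alcohol in WT sperm, but no single one passed the test. C/D box snoRNAs guide the methylation, and H/ACA box snoRNAs the pseudouridylation, of ribosomal RNA, while U3, U8 and U17 take part in cutting its precursor. These lists were drawn up after the values had been seen, so their counts are descriptions without a test. Of 65 C/D box exons (Snord genes), 61 had a positive Nrf2 -/- response, with a median of 0.89, and 60 had a lower response in WT, with a median difference of -0.69. Their median WT response was 0.22, with 46 positive, but -0.054 with 23 positive without WT control 1. In 23 of the 65 (35.4%) all 4 ethanol libraries lay above all 4 Nrf2 -/- controls, as they did for 2.43% of all other-class features. In 0 did the WT groups separate upward, beside 0.307% of all other-class features. Separation in WT asks for 8 alcohol libraries above 4 controls, which is harder to reach. The 0 therefore says little and cannot be set against the 23. The 30 H/ACA box exons (Snora genes) had a median of 0.44 in Nrf2 -/-, -0.66 in WT and -1.04 for the difference, with 28 lower in WT. With total counts as the scale, the Nrf2 -/- median of the Snora exons was 0.062, with 18 of 30 positive, and that of the difference -0.59. Without Nrf2 -/- control 4 the Nrf2 -/- median was 0.26. In 1 of these 30 exons (3.33%) all 4 ethanol libraries lay above all 4 Nrf2 -/- controls. The 4 Scarna exons (small RNAs of Cajal bodies) had medians of 0.55 in Nrf2 -/-, 0.37 in WT and 0.14 for the difference, with 2 lower in WT. All 21 rows of the nucleolar RNAs U3, U8, U13, U14 and U17, which belong to 5 names and in part hold the same reads, had a positive Nrf2 -/- response (median 0.89) and a negative difference (median -1.13). In 10 of them the Nrf2 -/- groups did not overlap.

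The direction of the Snord and nucleolar RNA medians did not depend on which Nrf2 -/- controls were used. The Snord median in Nrf2 -/- was 1.10 against controls 3 and 4 and 1.11 against controls 1 and 2, with 63 and 61 of 65 positive. It was 0.77 to 1.12 when single libraries were left out and 0.50 with total counts as the scale. The median difference stayed between -0.98 and -0.48 without any 1 library. For the nucleolar RNAs the median was 1.06 against controls 3 and 4 and 1.11 against controls 1 and 2, and 21 of 21 rows were positive each time. The 168 rows of spliceosomal RNAs (U1, U2 and their partners, which remove introns) had no such stable direction. Their median difference was -0.28, 0.33 with total counts, 0.10 against controls 3 and 4 and -0.90 against controls 1 and 2. All 4 ethanol libraries lay above all 4 Nrf2 -/- controls in 17 of the 168 rows (10.1%), beside 2.43% of all other-class features. They also did so in 55 of all 861 structural rows and in 6 of 91 hairpins.

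Snord85, a C/D box snoRNA, had the lowest p of its list. In CPM of the non-miRNA counts, scaled by TMM within its set, it was 1512, 227, 499 and 257 in the WT controls, and 56.03, 328 and 598 in WT alcohol (lowest, median and highest of 8 here and below). In Nrf2 -/- sperm it was 1845, 2126, 1810 and 1458 in the controls and 4894, 4692, 4121 and 5494 with ethanol. The Nrf2 -/- groups did not overlap, whereas the WT groups did, with WT control 1 above all other WT libraries. The Nrf2 -/- response was 1.41 ± 0.30 (SE) and the difference -2.25 ± 0.72, with an edgeR p of 0.004656 and an adjusted p of 0.947. Snord87 was 13.98, 135, 113 and 89.3 CPM in the WT controls and 27.1, 72.4 and 103 in WT alcohol. Its Nrf2 -/- controls were 565, 631, 492 and 416, all below the ethanol libraries at 1275, 1388, 993 and 995 CPM, and the difference was -1.43 ± 0.62. Snord37 followed the same pattern, with a difference of -1.37 ± 0.57. Snord90 was 1 of the 4 Snord exons with a negative Nrf2 -/- response (-0.73); its controls 1 and 2 were at 740 and 532 CPM and its controls 3 and 4 at 55.9 and 34.5.

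U3, which guides the first cuts of ribosomal precursor RNA, was named in 4 rows with identical counts, so it stands for 1 measurement. It was 27.5, 17.9, 25 and 14.7 CPM in the WT controls and 13.5, 17.6 and 27.4 in WT alcohol. Its Nrf2 -/- controls had 265, 293, 234 and 203 CPM and the ethanol libraries 488, 506, 372 and 534. The ethanol libraries all exceeded the controls, and the difference was -1.13 ± 0.35 (edgeR p 0.003776, adjusted p 0.947). U8 was 337, 486, 215 and 145 CPM in the Nrf2 -/- controls and 881, 731, 763 and 481 with ethanol, with a difference of -1.51 ± 0.56. U17, an H/ACA RNA, was 190, 24.8, 14.2 and 14.2 CPM in the WT controls, 1 of which stood apart, and 12.9, 19.2 and 32.8 in WT alcohol. Its Nrf2 -/- controls were at 131, 190, 139 and 65.3 and its ethanol libraries at 158, 297, 403 and 308, and these groups overlapped. Among other structural and nucleolar RNAs, Rmrp, the RNA of the RNase that processes ribosomal precursors, had a difference of -1.71 ± 0.52, and a U5 spliceosomal row one of -1.32 ± 0.41. A row of tRNA-Glu-GAG had a difference of -2.26 ± 0.67, with WT controls at 153, 57.8, 48.0 and 41.3 CPM.

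**Figure D2:**
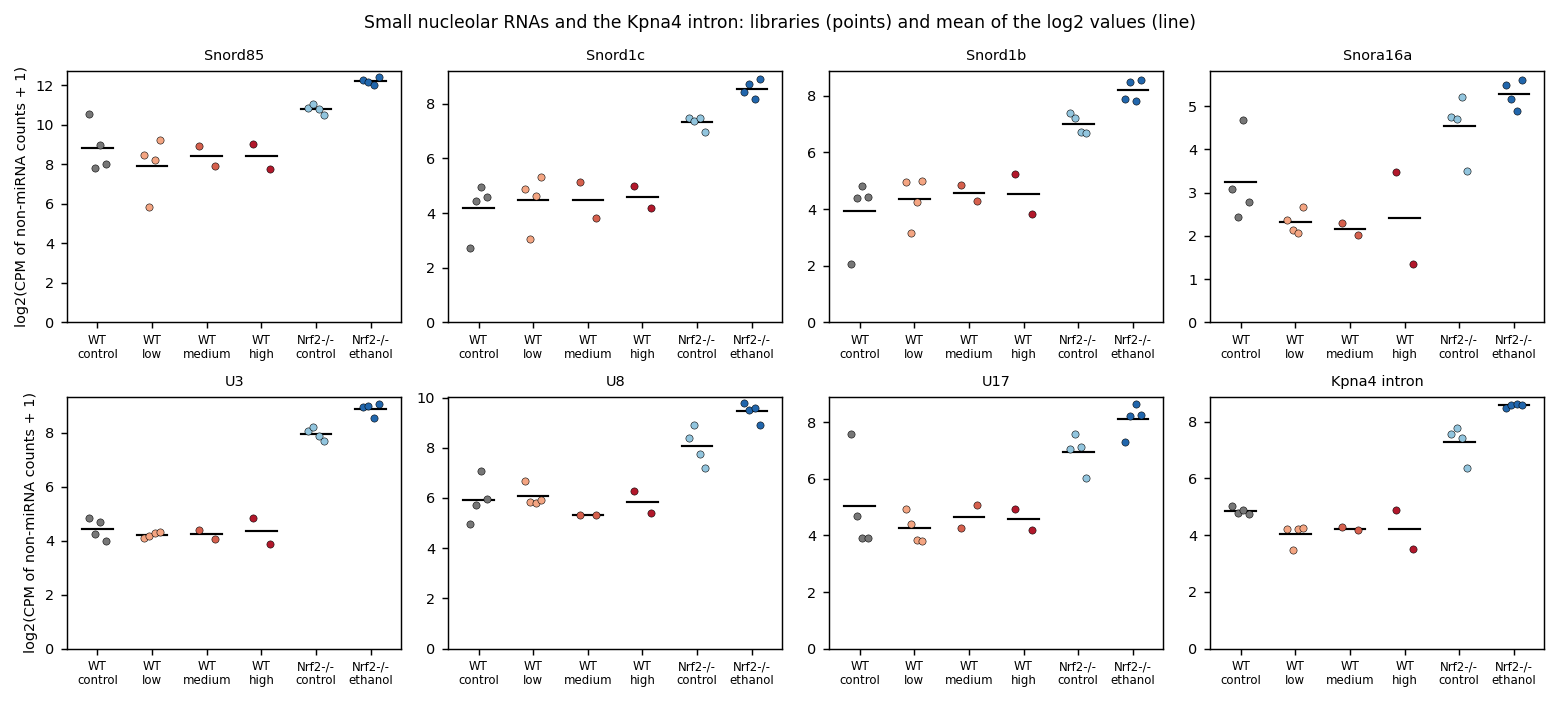
Log2(CPM + 1) of non-miRNA counts per library for Snord85, Snord1c, Snord1b, Snora16a, U3, U8, U17 and the Kpna4 intron; points are libraries, lines the mean of the log2 values, and only differences within a genotype were compared. The 4 Nrf2 -/- ethanol libraries lie above all 4 Nrf2 -/- controls for Snord85 and U3, and the WT dose groups overlap the WT controls for both.

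Some intron rows had responses of the same sign as the snoRNAs. The Kpna4 intron (Kpna4 is a nuclear import receptor) had the lowest p of the difference among other-class features with a mean of at least 10 CPM, -1.91 ± 0.41 (edgeR p 0.0001188, adjusted p 0.947). It was 31.3, 26.4, 28.4 and 25.8 CPM in the WT controls and 10.0, 17.5 and 28.6 in WT alcohol. In Nrf2 -/- sperm it was 186, 216, 169 and 81.8 in the controls and 352, 387, 390 and 387 with ethanol. The WT alcohol libraries lay mostly below their controls and the Nrf2 -/- ethanol libraries all above theirs. An intron of Snhg1, a host gene of small nucleolar RNAs, was 342, 350, 344 and 203 CPM in the Nrf2 -/- controls and 745, 944, 690 and 750 with ethanol. Introns of Ubap2, Hspa9, Nop56 (a core protein of C/D box particles) and Atg16l1 were the 4 introns called higher against both control pairs taken singly, by 1.56 and 2.53, 1.29 and 2.39, 1.25 and 1.64, and 1.46 and 1.70 log2 units against controls 1 and 2 and controls 3 and 4. They were picked by that property after the values were seen. Whether intron rows share reads with snoRNAs inside them was not tested.

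All 13 mitochondrial messenger RNAs had a positive response in both genotypes, but none passed the test. The mitochondrial genome encodes 13 proteins of the respiratory chain and ATP synthase, and all 13 exon rows were tested. This list was also chosen after the values had been seen. Other-class features (mean of at least 10 CPM) with the same sign in both sets were ranked by their larger unadjusted edgeR p. Of the 8 lowest in this ranking, 7 belonged to the list. The WT responses were 0.90 to 1.70 (median 1.57) and the Nrf2 -/- responses 0.95 to 1.26 (median 1.18), on the log2 scale. The differences were -0.13 to 0.64 (median 0.43). For the difference 0 of the 13 had an unadjusted edgeR p under 0.05, beside 4.66% of all other-class features, which does not show equal responses. At that level edgeR gave 12 in WT and 8 in Nrf2 -/-, beside 5.06% and 3.35% of all other-class features, in a list picked for its values, while the lowest adjusted p was 0.712 in WT and 0.908 in Nrf2 -/-. The median Nrf2 -/- response was 1.08 against controls 1 and 2 and 1.84 against controls 3 and 4, and the median difference then became 0.53 and -0.37. It was 0.026 without WT control 1, whose sum is the lowest, and 0.022 without Nrf2 -/- control 2. Summed over the 13, WT controls ranged from 75.9 to 1549 CPM of all counts (median 1128) and WT alcohol from 1488 to 3735 (median 2466). In Nrf2 -/- sperm the controls ranged from 378 to 982 (median 674) and the ethanol libraries from 536 to 1647 (median 1102). The ranges overlapped in both sets.

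ND6, a subunit of complex I, was 12.5, 56.5, 24.5 and 32.1 CPM in the WT controls and 41.8, 94.0 and 140 in WT alcohol. It was 23.7, 37.7, 19.2 and 30.3 in the Nrf2 -/- controls and 57.3, 84.5, 48.2 and 42.3 with ethanol. It was the 1 mitochondrial row whose Nrf2 -/- groups did not overlap, and its responses were 1.502 ± 0.37 and 1.06 ± 0.44. ND5, also of complex I, was 29.4, 179, 57.4 and 143 CPM in the WT controls and 146, 325 and 520 in WT alcohol, with 94.6, 115, 46.9 and 69.9 in the Nrf2 -/- controls and 176, 281, 177 and 87.2 with ethanol. COX1, a core subunit of complex IV, was the member with the lowest WT response, 0.90 ± 0.43, and it had an Nrf2 -/- response of 1.04 ± 0.49. The hairpin of mir-142a, a leukocyte miRNA, was the remaining feature of the ranking by same sign and p (0.93 ± 0.33 and 1.39 ± 0.61).

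Among miRNAs, miR-22-5p had the lowest p of the difference (edgeR p 0.0002034, adjusted p 0.0645). All 4 Nrf2 -/- controls had 0 counts and the ethanol libraries 12, 15, 3 and 2, so the level with ethanol was at least 11.3-fold higher, taking 3 counts over the control group as the floor. The fitted difference depends on the prior count and is not given. In CPM of the miRNA counts, scaled by TMM within its set, the WT controls had 49.7, 11.6, 17.1 and 28.3 and WT alcohol 0, 12.4 and 21.8. The Nrf2 -/- response therefore rests on 32 counts, and the WT groups overlapped. miR-296-5p was 87.5, 244, 226 and 206 CPM in the WT controls and 146, 287 and 631 in WT alcohol, and 6.97, 5.65, 21.1 and 22.5 in the Nrf2 -/- controls and 2.56, 4.00, 6.94 and 3.53 with ethanol. Its difference was 2.53 ± 0.78 (edgeR p 0.004097), and the next 8 miRNAs by p shared its adjusted p of 0.579. Neither set separated by group.

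miR-425-5p was 5170, 21550, 13150 and 12290 CPM in the WT controls and 14550, 24670 and 30820 in WT alcohol. Its Nrf2 -/- controls had 814, 839, 2555 and 3621 CPM and the ethanol libraries 551, 776, 1260 and 820, and the difference was 2.08 ± 0.69. Its WT groups overlapped only through control 2, and its high Nrf2 -/- controls were 3 and 4. The X-linked testis miRNAs miR-878-3p (2.35 ± 0.84) and miR-743a-3p (2.52 ± 0.92), and miR-669o-3p (2.19 ± 0.82), had differences of the same sign. miR-743a-3p was 686, 1069, 8068 and 15790 CPM in the 4 Nrf2 -/- controls and 1453, 955, 2239 and 2099 with ethanol. Against controls 1 and 2 alone its difference was -0.48. let-7b-5p had a difference of -2.93 ± 1.09, with WT control 1 at 27040 CPM and the other WT controls at 1013, 3426 and 1830. Without WT control 1 its difference was -1.04. mir-155 had -3.58 ± 1.39 on few counts, with WT libraries between 0 and 9.94 CPM.

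**Figure D3:**
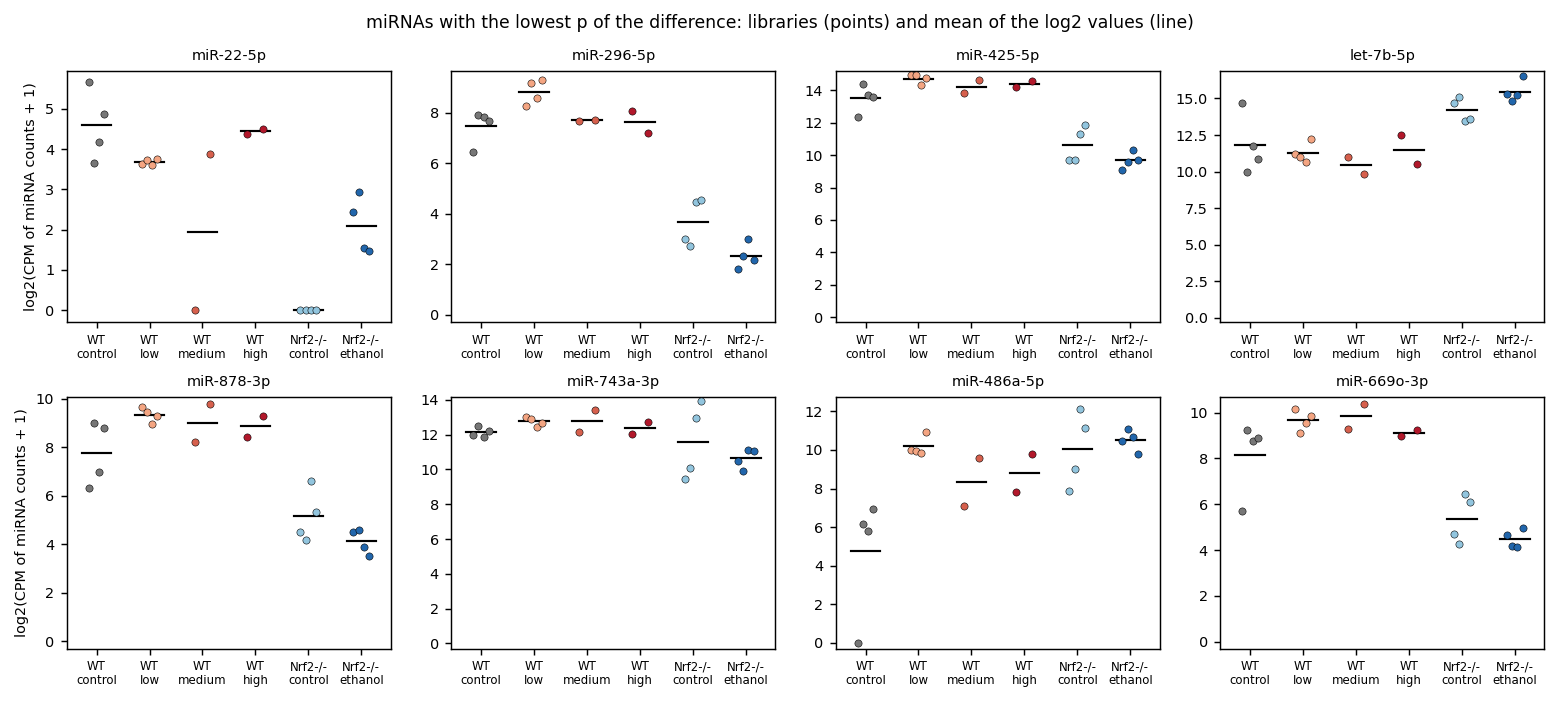
Log2(CPM + 1) of miRNA counts per library for 8 miRNAs with the lowest p of the difference; points are libraries and lines the mean of the log2 values. For miR-22-5p all 4 Nrf2 -/- controls lie at 0, and for miR-743a-3p the Nrf2 -/- controls lie in 2 pairs.

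The let-7 family restrains growth and stem cell genes, and 0 of its members passed in either set. Of 10 members 9 were tested; 9 of 9 had a positive Nrf2 -/- response (median 0.71) and 4 of 9 a positive WT response (median -0.23). The median difference was -1.20, beside 0.07 for all miRNAs, and 8 of 9 were negative. It was -1.86 to -0.83 when single libraries were left out. Against controls 1 and 2 the Nrf2 -/- median was 0.28 (8 of 9 positive) and against controls 3 and 4 it was 1.56. let-7i-5p had Nrf2 -/- controls at 2200, 2221, 1530 and 1465 CPM and ethanol libraries at 3626, 3919, 2717 and 6470, which did not overlap, and WT libraries at 422 to 795 (controls) and 615 to 939 (alcohol). let-7f-5p had a difference of -1.20 ± 0.68 and miR-98-5p one of -1.48 ± 0.95. let-7c-5p had a count of 0 in WT control 3, where many counts were expected, and 63470 to 277100 CPM in the Nrf2 -/- controls.

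The miRNAs of red blood cells had positive WT responses, of which 0 passed the test, and Nrf2 -/- responses that depended on the controls used. Of 7 listed, 6 were tested, and 6 of 6 had a positive WT response (median 2.63), against 3 of 6 in Nrf2 -/- (median 0.20). The Nrf2 -/- median was 1.99 against controls 1 and 2 and -0.76 against controls 3 and 4, and the median difference 1.12 and 2.90. miR-451a, which red cell precursors need to mature, was 268, 132, 158 and 374 CPM in the WT controls and 154, 1924 and 3346 in WT alcohol; in Nrf2 -/- sperm it was 18.8, 35.3, 107 and 35.3 in the controls and 50.8, 262, 45.4 and 3.53 with ethanol. miR-486a-5p was 0, 71.1, 55.5 and 122 CPM in the WT controls, with a count of 0 in control 1 where at least 50 were expected, and 137, 900 and 1976 in WT alcohol. It had a difference of 4.10 ± 1.42. By dose, its raw counts were 1342, 1054, 1065 and 1259 in the low-dose libraries, 190 and 505 in the medium and 237 and 934 in the high. Those of miR-451a were 2776, 2293, 3893 and 1106, then 609 and 999, then 163 and 2442. The pooled WT response of these 2 miRNAs therefore draws most on the low dose. The WT groups overlapped for miR-451a and did not for miR-486a-5p, and 6 miRNAs in all were higher in WT without overlap (1.89%). The sum of hemoglobin and other red cell transcripts was 1.89 to 13.5 CPM in the WT controls, 34.9 to 63.8 in the low-dose, 6.76 to 15.5 in the medium-dose and 6.66 to 29.1 in the high-dose libraries. Of 8 red cell genes 4 were tested, and 4 of 4 had a positive response in WT (median 2.38) and in Nrf2 -/- (median 0.43; 2.09 against controls 1 and 2, -0.31 against controls 3 and 4). The part of red cell RNA in the miRNA responses was not tested.

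miR-101a-3p was the 1 miRNA lower in WT alcohol without overlap (0.315% of the miRNAs). It was 1079, 812, 867 and 586 CPM in the WT controls and 98.0, 169 and 459 in WT alcohol, a response of -1.93 ± 0.43 with an edgeR p of 0.0007429 and an adjusted p of 0.118. In Nrf2 -/- sperm it lay between 0 and 13.6 CPM in every library, with a response of -0.83 ± 1.09, and the difference was -1.10 ± 1.09. The group of miR-10 and its relatives (miR-99, miR-100, miR-125), from the Hox and let-7 clusters, was lower in WT in 8 of 8 tested (median -0.76) with a median of 0.04 in Nrf2 -/- (-0.59 against controls 1 and 2, 1.62 against controls 3 and 4). The miR-34 and miR-449 family, which acts in spermatogenesis and on multiciliated cells, had a median of 0.22 in WT and -1.53 in Nrf2 -/-, where 5 of 6 were negative (-0.63 against controls 1 and 2, -1.99 against controls 3 and 4). Members had counts of 0 where at least 50 were expected, and these entered as 0. They were miR-449a-5p in ethanol 2 and 3, miR-34b-3p in ethanol 2, and both of these and miR-34c-3p in several WT libraries. The family without these gaps was not computed. miR-34c-5p was 3162, 3244, 5875 and 8569 CPM in the Nrf2 -/- controls and 1638, 2816, 5205 and 2170 with ethanol, and 24850 to 66930 in the WT controls and 35310 to 59340 in WT alcohol. Its difference was 0.85 ± 0.59. Among the 16 X-linked testis miRNAs tested, 13 were lower with ethanol in Nrf2 -/- (median -0.66), 11 were higher in WT, and the median difference was 0.95; against controls 1 and 2 alone it was 0.0045 and without Nrf2 -/- control 4 it was 0.52. The miR-17-92 group had a median difference of 0.95 (0.36 against controls 1 and 2, 0.46 without Nrf2 -/- ethanol 4) and the 11 paternal stress miRNAs one of 0.63 (0.0076 against controls 1 and 2, 0.26 without Nrf2 -/- ethanol 4). It was -0.96 for the leukocyte miRNAs (-0.27 against controls 1 and 2) and -0.85 for those of muscle and stroma (-0.25 against controls 1 and 2, -0.35 without WT control 4). The 12 miRNAs described to target Nrf2 or Keap1 had -0.67, and -1.41 without Nrf2 -/- control 1. Other lists here also hold gaps, for example miR-92a-3p of the miR-17-92 group, with counts of 0 in Nrf2 -/- control 2 and ethanol 3. In all these lists 0 members passed in either set or in the difference.

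The Nrf2 target genes gave opposite results against the 2 Nrf2 -/- control pairs. Of 34 genes 28 were tested (exon counts summed per gene), with medians of -0.18 in WT, -0.77 in Nrf2 -/- and 0.80 for the difference, beside -0.07, -0.48 and 0.42 for all 9304 exon genes. The Nrf2 -/- median was -1.504 against controls 1 and 2 and 1.2 against controls 3 and 4, and the median difference 1.36 and -1.53. That difference was 0.19 without WT high-dose library 1, 0.22 with TMM within each class and 1.39 with total counts as the scale. The summed level was 462, 450, 140 and 141 CPM in the 4 Nrf2 -/- controls and 130, 98.99, 89.3 and 175 with ethanol; in WT it was 68.1 to 185 in the controls and 80.9 to 326 with alcohol. Controls 1 and 2 were thus alone above all other libraries in that list. The same pair was high in epididymis markers, and the part of these in the Nrf2 target sum was not tested. Gstm5, a glutathione transferase of testis and sperm, ran the other way, with 23.1, 27.7, 148 and 219 CPM in the Nrf2 -/- controls, 39.7, 51.9, 72.9 and 46.2 with ethanol, and 41.4 to 57.4 in the WT controls against 44.3 to 75.0 with alcohol. Taldo1, an enzyme of the pentose phosphate pathway, was 12.3, 15.6, 0.826 and 0.998 CPM in the Nrf2 -/- controls and 5.68, 4.11, 3.76 and 1.10 with ethanol. The alcohol and aldehyde metabolism genes (10 of 16 tested) had medians of -0.04 in WT, -0.49 in Nrf2 -/- and 0.27 for the difference, which became -1.37 against controls 3 and 4, 0.94 against controls 1 and 2 and -0.33 without WT high-dose library 1. Aldh9a1, an aldehyde dehydrogenase, had the lowest p of the list, with a difference of 1.5 ± 0.78.

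Transcripts of sperm and spermatids behaved in the same pairwise manner. All 19 were tested; 0 of 19 had a positive Nrf2 -/- response (median -0.78), 14 of 19 a positive WT response (median 0.14), and 19 of 19 a positive difference (median 0.85, and 0.20 without Nrf2 -/- control 4). Against controls 1 and 2, 19 of 19 were positive in Nrf2 -/- (median 1.09), and against controls 3 and 4, 0 of 19 (median -1.56). Oaz3, a sperm antizyme, was 23.4, 33.96, 149 and 241 CPM in the Nrf2 -/- controls and 39.3, 70.4, 55.9 and 41.5 with ethanol. The ethanol libraries lay between the 2 control pairs in this gene, as did Tssk6, a testis kinase, at 4.18, 6.92, 27.3 and 56.2 against 9.73, 12.3, 13.2 and 11.8 CPM. Epididymis epithelium (6 of 21 genes tested) had medians of -0.24, -0.55 and 0.38 (the difference was -0.26 without WT high-dose library 1), and -1.75 or 2.18 in Nrf2 -/- against the first or the second pair. Crisp1, a secreted protein of the epididymis that coats sperm, was 1106, 1185, 48.3 and 21.6 CPM in the Nrf2 -/- controls and 373, 331, 261 and 434 with ethanol. Of the smooth muscle and fibroblast transcripts, 9 of 9 tested had a positive response in Nrf2 -/- (median 0.77; 9 of 9 against controls 1 and 2 and 6 of 9 against controls 3 and 4), 3 of 9 had one in WT, and the median difference was -1.01 (-0.65 without WT control 4). Dcn, a collagen-binding proteoglycan of fibroblasts, was 7.87, 6.49, 4.96 and 7.98 CPM in the Nrf2 -/- controls and 15, 15.9, 15.98 and 12.9 with ethanol, without overlap, and its difference was -1.27 ± 0.57. Hepatocyte transcripts (8 of 9 tested), of which Alb, the plasma albumin, was 21.1, 40.2, 67.7 and 104 CPM in the Nrf2 -/- controls and 146, 53.99, 54.5 and 194 with ethanol, had a median difference of -1.23 (-0.77 without Nrf2 -/- ethanol 4, -1.89 without Nrf2 -/- control 4). None of these lists had a member past the threshold.

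**Figure D4:**
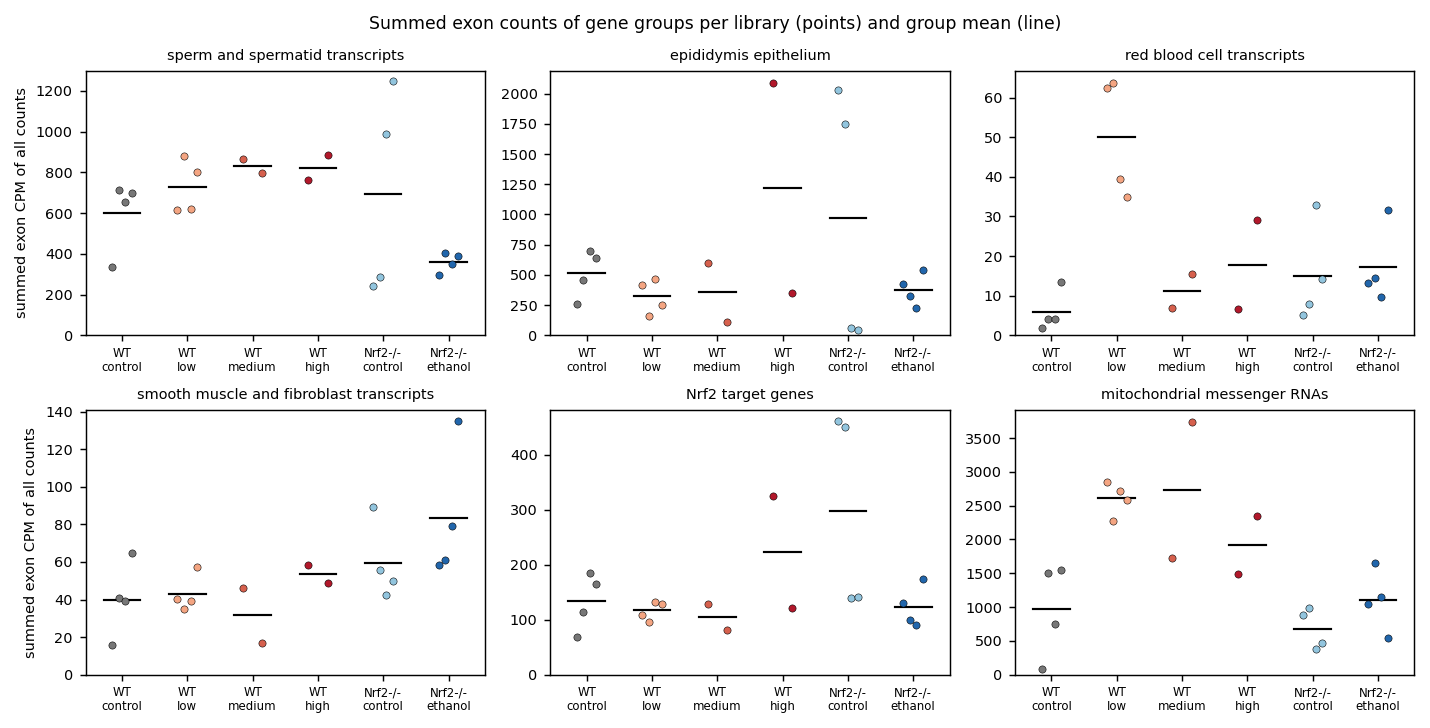
Summed exon counts of 6 gene groups per library, in CPM of all counts, with libraries as points and group means as lines. The Nrf2 -/- controls fall into 2 pairs for sperm, epididymis and Nrf2 target transcripts, and the mitochondrial sum is higher on average with alcohol in both sets.

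**Figure D5:**
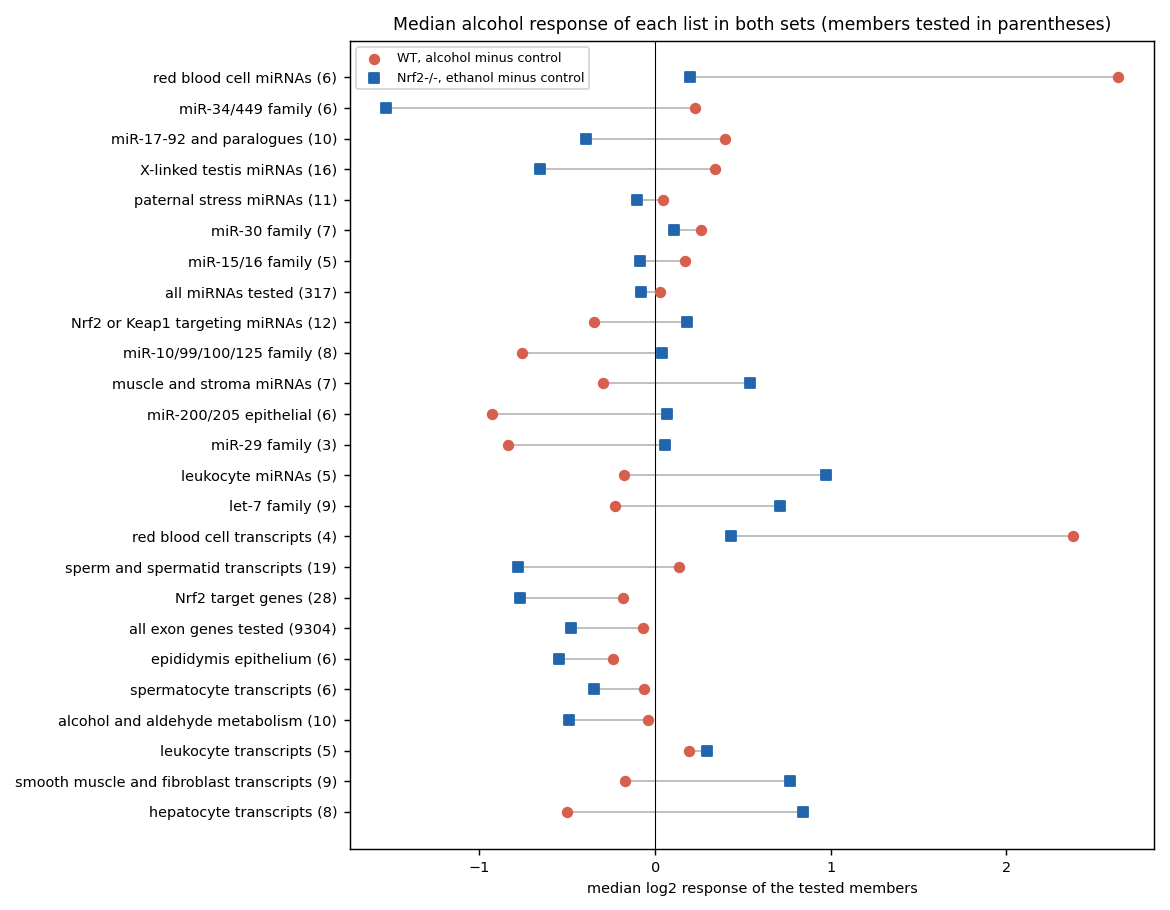
Median log2 response of the tested members of each list in WT (circles) and Nrf2 -/- (squares) sperm, with the number of tested members in parentheses; the top block holds miRNA lists and the lower block exon genes. Red cell miRNAs and transcripts have WT medians of 2.63 and 2.38, and the sperm list has -0.78 in Nrf2 -/-.

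Few features separated in both sets. Among other-class features, 53 were higher and 17 lower without overlap in WT (0.307% and 0.0985%), and 419 higher and 202 lower in Nrf2 -/- (2.43% and 1.17%). These shares cannot be compared between the sets, because non-overlap of 8 and 4 libraries in WT is harder to reach than that of 4 and 4. Among miRNAs the Nrf2 -/- counts were 3 higher (0.946%) and 4 lower (1.26%), and 0 miRNAs separated in both sets. Both sets separated upward in 5 introns (0.029%), of Ccnl1 and Chd2, which act in transcription and chromatin, Sltm, D5Ertd579e and Ube2n, a ubiquitin-conjugating enzyme. The Ube2n intron was 0.964, 1.19, 0.490 and 0.592 CPM in the WT controls and 1.52, 2.01 and 3.67 in WT alcohol, and 1.92, 0.290, 0.751 and 0.771 in the Nrf2 -/- controls and 3.08, 3.40, 4.21 and 3.28 with ethanol. Vaultrc5, a small RNA of vault particles, had the lowest p of all WT responses among other-class features, -1.21 ± 0.22 (edgeR p 4.221e-05, adjusted p 0.574), from 158, 86.4, 138 and 95.04 CPM in the WT controls to 28.3, 51.7 and 62.6 with alcohol. Its Nrf2 -/- controls were 424, 451, 47.3 and 37.8 CPM, which is the control pair split again, and its Nrf2 -/- response was -0.10 ± 0.78. An exon of Mfap3l, a membrane protein gene, had the lowest p of the difference among exons with a mean of at least 10 CPM, 1.53 ± 0.42. It was 42.8, 45.8, 28.5 and 40.4 CPM in the Nrf2 -/- controls and 15.9, 17, 19.2 and 22.95 with ethanol, without overlap, and 13.02, 7.99, 15.2 and 13.03 in the WT controls against 10.7, 15.6 and 26.0 with alcohol. Camk1d, a calcium-dependent kinase, had an exon that was lower with ethanol against both control pairs (-2.40 and -1.68), with a difference of 2.12 ± 0.75.

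Transposon and piRNA features had 0 calls for the difference against all 4 Nrf2 -/- controls. Against controls 3 and 4 alone, 4 of 1155 antisense and 3 of 1200 sense transposon features and 0 of 210 piRNA clusters were called. Beside them, 83 of all 17266 other-class features were called, so the 0 of so few clusters says little. Against controls 1 and 2 alone, 0 of all other-class features were called. Among features with a mean of at least 10 CPM, the lowest p of the difference per class belonged to the antisense SINE ID4_ (-1.83 ± 0.64), the sense retrovirus fragment MurERV4-int (2.71 ± 1.01) and the piRNA cluster pi-Uhmk1.1 (0.63 ± 0.33). MurERV4-int was 5.06, 15.98, 18.1 and 20.4 CPM in the WT controls and 12.95, 20.6 and 25.8 in WT alcohol. Its Nrf2 -/- controls had 13.1, 2.61, 15.02 and 25.5 CPM and 3 of its 4 ethanol libraries at most 0.441, with the other at 10.8. The piRNA cluster 7-qD2-40.1 was 85.7, 120, 4.51 and 4.88 CPM in the Nrf2 -/- controls, once more in pairs, and 19.8, 14.2, 21.97 and 31.5 with ethanol.

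As a share of all counts, no RNA class passed the test for a difference between the responses (exact permutation test within sets, 34650 arrangements, two-sided, adjusted p at least 0.4406 over 8 classes). The test permutes the alcohol labels within each set, so its null is that neither set responds, and not that both respond alike. With that null and so few libraries, the result does not show that the responses were equal. miRNAs made up 11.3% ± 5.07 (SD, n = 4) of counts in the WT controls and 15.9% ± 3.30 (n = 8) in WT alcohol. In Nrf2 -/- sperm they made up 32.9% ± 12.6 (n = 4) in the controls and 45.9% ± 7.78 (n = 4) with ethanol. Exons went from 6.68% to 7.09% in WT and from 9.08% to 5.87% in Nrf2 -/-, a difference of 3.62 percentage points (exact permutation p 0.08999, adjusted p 0.4406). piRNA clusters made up 28.9% and 30.7% in WT and 17.6% and 12.2% in Nrf2 -/-. Sense transposons ranged from 2.27% to 2.91% in the Nrf2 -/- controls and from 1.68% to 2.16% with ethanol, without overlap. That response had an exact permutation p of 0.02857 and an adjusted p of 0.2286. With 4 libraries against 4 this is the lowest p the two-sided test can give. A class that separated alone could therefore not pass after adjustment over 8 classes, however large its response. The difference for sense transposons was 0.94 percentage points (exact permutation p 0.1326).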

How the data were processed

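The authors deposited whole-number read counts per feature, 1 table per set, with the RNA class of each feature; per the labels, these came from total sperm RNA. The aligner and genome build are not given in the sources used here. The tables were matched on feature identifier and class, and the 8 libraries of the floxed and liver knockout groups were not used. The label of WT medium 1 was followed, although its column name begins like those of the high dose; the pooled comparison is the same either way.

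From the counts, miRNAs (771 matched) and the other 7 classes were tested as 2 families with edgeR 4.0.16 (quasi-likelihood F test, 4 group means, filterByExpr, TMM factors within each table, no replicate block) in R 4.3.3, with Benjamini-Hochberg adjustment at 0.05. DESeq2 1.42.0 was an alternative. After filtering, 317 miRNAs and 17266 other features remained. Features with a mean of at least 10 CPM were named by lowest p of the difference (10 per family and 2 per class). They were also named by same or opposite direction (8 each) or by lowest p of each response (5). The 10 most abundant miRNAs and up to 4 members per list were named without that limit. Apart from Nfe2l2, features outside this rule were picked from their values, among them Snord87, Snord37, Snord90 and COX1. The 5 introns that separated in both sets were also picked so, with means of 1.17 to 5.88 CPM. The members and lists were chosen with earlier results of these data known. Class shares were tested by exact permutation. The alternatives were other scalings, filters, doses, thresholds, a replicate block, leaving out single libraries, and, chosen after the data were seen, leaving out either pair of Nrf2 -/- controls. The tests were checked on simulated data. Copies of a repeated RNA share reads: 155 of 861 structural rows have counts identical to another row. No 2 libraries were identical. Some rows are 0 in single libraries where at least 50 counts were expected (51 miRNAs in WT, 35 in Nrf2 -/-), and they enter as 0. Intervals and the floor of 3 counts cover counting error only.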

Additional observations from a re-analysis of the deposited data

Results flagged for a closer look

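Of 145 groups of 4 to 8 libraries checked for 1 library standing far from the others, 16 had one; chance gives about 1 in 20. WT control 1 was apart in 5 measures. It had 75.8% of its counts in structural RNA (Wilson 95% interval 75.75 to 75.8; next library 28.7%), 2.12% in antisense (2.11 to 2.13; next 6.28%) and 1.80% in sense transposons (1.79 to 1.80; next 4.96%). Its sperm and spermatid transcripts summed to 334 CPM (next 654), and let-7b-5p was at 27040 CPM (next 3426).

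WT high-dose library 1 was the highest of the 8 alcohol libraries in 4 measures. Its epididymis markers summed to 2089 CPM (next 598), its Nrf2 target genes to 325.6 CPM (next 133) and its alcohol and aldehyde metabolism genes to 133 CPM (next 45.3). Exons made up 9.60% of its counts (9.58 to 9.62; next 7.24%).

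Nrf2 -/- ethanol library 4 had 6.43% of its counts in introns (6.40 to 6.45; next 4.84%) and 0.0956% in hairpins (0.0930 to 0.0983; next 0.147%). Its let-7b-5p was at 97300 CPM (next 40190) and its Sertoli and Leydig transcripts at 4.02 CPM (next 2.96). Among the 4 low-dose libraries, library 4 was highest in miR-486a-5p (1976 CPM, next 1020) and miR-486b-5p (1969 CPM, next 1066), and library 1 alone had mir-155, at 1.52 CPM.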

How the results depend on the processing

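DESeq2 called 21 miRNAs in WT, 2 miRNAs for the difference, 8 other features in WT and 2 for the difference. Low dose alone gave 3 miRNAs and 9 other features in WT and 1 miRNA for the difference, and medium with high dose 1 other feature. Leaving out features with gaps gave 2 miRNAs in WT and 1 for the difference, and an adjusted p of 0.1 gave 1. Without a filter 298 other features were called in WT, 47 in Nrf2 -/- and 82 for the difference. Leaving out Nrf2 -/- controls 1 and 2 gave 574 other features in Nrf2 -/-, and 84 other features and 42 miRNAs for the difference. Leaving out controls 3 and 4 gave 4106 in Nrf2 -/-, 1 in WT and 1 miRNA for the difference. Without single libraries, WT gave 0 to 4 miRNAs and 0 to 1 other features, and the difference 0 to 1 miRNAs. The causes were not tested.

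The correlation of the responses became -0.065 for exons without controls 1 and 2; without controls 3 and 4 it was -0.10 for introns, 0.30 for miRNAs and 0.47 for structural RNAs. For hairpins it was 0.39 with a filter in each table and 0.40 at 10 CPM. Class share differences changed sign for introns (-0.77 percentage points without the most abundant class), for miRNAs (0.073 as log2 shares, 2.39 without controls 3 and 4), for piRNA clusters (-0.31 without controls 3 and 4) and for structural RNA (0.031 as log2 shares). Without single libraries they ran from -0.024 to 1.48 for antisense transposons, -0.27 to 0.997 for introns and -10.2 to 7.60 for structural RNA, the last without WT control 1.

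Of 90 values of named features, 79 kept their sign under every alternative run. Without controls 3 and 4 the difference was -0.48 for miR-743a-3p, -0.65 for miR-191-5p, -0.12 for miR-669a-3p and 0.040 for let-7g-5p. miR-191-5p had a gap of 0 counts in Nrf2 -/- control 1, beside 121181, 135550 and 236072 in the other controls, and control 1 stays in this subset. The part of the gap in its change of sign was not tested. Without controls 1 and 2 the difference was -1.87 for the cluster 7-qD2-40.1, and the Nrf2 -/- response of miR-137-3p was 2.45. Without single libraries the difference ran from -2.28 to 0.12 for let-7c-5p and from -0.74 to 0.050 for let-7a-5p, both highest without WT control 1; with total counts let-7a-5p was at 0.00497. The WT response was -0.34 for let-7f-1 at low dose, and without single libraries ran from -1.35 to 0.68 for miR-137-3p, highest without WT control 4, and from -0.13 to 0.34 for let-7i-5p, which was below zero without WT control 2, low 3 or medium 1. Depth limits rows with few counts, such as the 32 counts of miR-22-5p.

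With the replicate number as a block 0 features were called in each comparison, and the class share difference was 3.46 percentage points for exons and -8.37 for miRNAs. To look for pairing, the group mean of each feature was subtracted from its log2 values, and these deviations were correlated across features between libraries. Such correlations are not those of the libraries' levels given above. Deviations of same-numbered libraries correlated above 0.1 in 1 of 4 pairs for miRNAs in both sets. For other features they did so in 2 of 4 (WT) and 1 of 4 (Nrf2 -/-). In Nrf2 -/-, these correlations of deviations in other features ran from -0.38 to 0.35 for same-numbered pairs and from -0.38 to 0.38 for differently numbered ones. With 4 pairs per set, such values cannot tell whether the libraries were paired.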
